A study of Mus musculus with 39 samples.

Results

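RNA labelled as coming from stromal vascular cells of brown fat (infiltrating macrophages), in mice on a high fat diet was compared between the first 2 weeks of feeding and the weeks that followed, over all 11 arrays of this diet among the 39 arrays of the series. The 5 early arrays were Day 1, Day 6, Day 10, Day 14 and Week 0. The 6 late arrays were taken every 3 weeks from Week 3 to Week 18. Weeks were counted from Day 14, so Day 14 and Week 0 stand for the same time on the diet. The mice were C57BL/6J, weaned at 3 to 4 weeks of age, and were given a high fat, high sucrose diet with 60% of calories from fat, called HFC here. Every mouse of both groups was of the same strain and ate the same diet, so that the groups differ in time on the diet, which goes together with age. The titles of the Day 1 and Week 9 arrays carry the letters BAT, whose meaning the labels do not give, and 0 probes passed without these 2 arrays. The low fat diet with 10% of calories from fat, LFC, gave 10 arrays (5 early, 5 late, with no Week 6) that were used beside the HFC arrays. A further 18 arrays came from mice on the high fat diet with 5, 20 or 75 µg of the plant formulation KAL-1, all at Week 3 to Week 18.

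There was 1 array per time point, so the time points served as the replicates of each group, and the p-values measure the spread between time points. The labels do not say how many animals went into an array. Values are log2 levels: the background-subtracted brightness of a probe on a log2 scale, minus the 75th percentile of its array, so that 0 is the level of the probe at that percentile. A positive difference means higher on the late arrays.

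Brown fat holds heat-producing fat cells, which carry the uncoupling protein of mitochondria, and a stromal vascular fraction made of macrophages, other leukocytes, endothelial cells and fat cell precursors. In young mice this tissue still grows, with dividing cells and new vessels. Interferons, released by leukocytes, switch on a set of antiviral genes and immunity-related GTPases in most cell types through STAT and IRF transcription factors.

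Genes inducible by interferon, genes of endothelial cells and genes of cell division were lower on the late arrays, and a smaller group that includes Enpp2, Hsd11b1 and Esr1 was higher. Of 27102 probes tested, 222 (0.819%) passed limma's test at an adjusted p of 0.05, 28 (0.103%) higher and 194 (0.716%) lower late. At the level of genes, each read from its brightest probe, 22 of 19636 (0.112%) passed as higher and 129 (0.657%) as lower. The smallest adjusted p was 0.0269. The late and early arrays did not overlap for 217 of the 222 probes, which were picked by this same difference. Among all probes tested, 197 (0.727%) did not overlap as higher and 709 (2.62%) as lower. The calls rest on single arrays: leaving out 1 array left between 0 and 205 probes, with 0 for Day 1, Day 6, Day 10, Week 0 or Week 15 and 3 for Week 9. Scaling by quantiles in place of the 75th percentile moved the median difference of all probes from -0.16 to 0.02, with 156 probes past the threshold, 26 higher and 130 lower.

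The arrays differ in ways that touch these results. Each of the 11 arrays was scanned on a day of its own, and the 4 Day arrays were scanned after every late array, so scan day goes with group. Week 0 is the exception, with 1 late array scanned before it and the other 5 after it. The 75th percentile of brightness ranged from 46.7 to 484 on the early arrays and from 46.2 to 1155 on the late ones (exact permutation test on log2, two-sided p = 0.359), and between 58.3% and 90.1% of early spots and 39.5% and 91.6% of late spots were well above background (exact permutation p = 0.636). On Week 12, 11.1% of spots carried an outlier flag and were dropped, against 2.19% on Day 1 and at most 0.13% on the others. Saturated spots numbered 460 on Week 6, 805 on Week 9 and 578 on Week 12, against 9 to 124 on the early arrays and 5 to 60 on the other late ones. A saturated spot gives only a lower bound of the level. Of the 222 probes that passed, 1 was saturated on any HFC array, that of Gpihbp1 on Day 1. In the authors' table, whose values are relative to a reference array, the column labelled HFC at Day 14 is 0 in all 40628 rows and the one labelled LFC in 150. Scd1, whose early levels did not overlap between the diets, was at 1.79 on the Day 14 array labelled HFC (1.03 to 2.0 on the early HFC arrays) and at 6.90 on the one labelled LFC (5.02 to 6.14 on the other early LFC arrays), so for this gene each array sits with its labelled diet. Me1, the malic enzyme, was at 2.73 on the array labelled HFC, between the other early HFC arrays (0.34 to 1.25) and the early LFC arrays (3.04 to 5.13). With the Day 14 array labelled LFC in place of the other, 349 probes passed, 34 higher and 315 lower, and without any Day 14 array 128 passed.

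Markers of the tissue were checked on every array. Ucp1, the uncoupling protein that marks brown fat cells, was well above background on all 11 arrays, between 4.63 and 6.70 on 10 of them (saturated on Week 6 and Week 9) and at -3.46 on Week 12. Adgre1, which codes for the macrophage marker F4/80, lay between 0.34 and 3.43 and Cd68, a lysosomal macrophage marker, between -1.96 and 2.06. Both ran lowest on Week 9 and highest on Week 12, so the arrays hold transcripts of brown fat cells beside those of macrophages. Week 6 and Week 9 resembled each other (r = 0.96 over the probes tested) more than they did any other array (r from 0.77 to 0.87). In RNA of mixed cells, fewer cells of a type and less RNA per cell cannot be told apart.

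**Figure D1:**
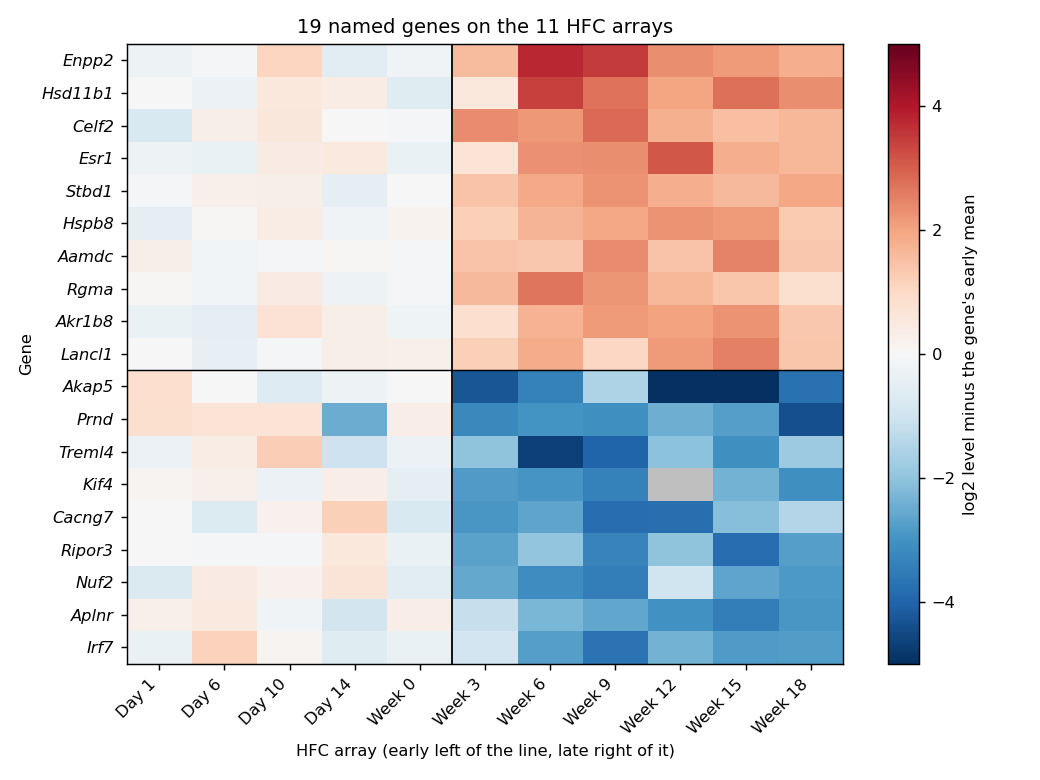
Heat map of 19 genes (rows) on the 11 HFC arrays (columns), coloured by the log2 level minus the gene's early mean; the vertical line parts early from late arrays and the horizontal line parts genes higher from genes lower late. Grey marks Kif4 on Week 12, whose spot was dropped. Prnd on Day 14, at -2.52, stands with the late arrays.

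The interferon-inducible genes had the most calls of the 34 lists. All 32 measured genes of the interferon list were lower late (30 of 32 with quantile scaling; 57.5% of all genes were lower), 6 passed the test (0.657% of all genes passed as lower), 25 had an unadjusted p under 0.05 (12.3% of all genes), and 11 did not overlap between the groups (2.35% of all genes). The median difference of the list was -1.45, against -0.13 over all genes. Without Week 6 and Week 9 the median was -1.13, with 30 of 32 genes lower. The mean level of the list lay between 1.89 and 2.74 on the early arrays and between -0.11 and 1.93 on the late ones, where Week 3 was the highest late array.

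The 250 bases before the start of these genes were searched for the letters of the 2 elements that interferon signalling is known to use, the ISRE (GAAA, any 2 bases, GAAA) and the GAS element (TTC, any 3 bases, GAA), on both strands. The ISRE letters were in 12 of the 24 list genes with a promoter in the reference table and in 936 of all 27025 genes (3.46%), and the GAS letters in 7 of 24 and in 2197 of all (8.13%). These matches are letters in a window, and not measured binding sites. Of the 5 genes of the list that passed and have a promoter in the table, 3 hold an ISRE match; Cxcl9 and Irf7 hold neither set of letters in this window. The stretches just before the start are shown for genes that fell, so that a reader can see the letters in place. They are RefSeq promoters of the build GRCm38.p6, 120 bases each, written 5′ to 3′ on the strand of the gene, with matches in capitals. In Gbp2 (chr3:142620543-142620662, + strand) the ISRE lies on the opposite strand, in Igtp (chr11:58199436-58199555, + strand) and Tgtp1 (chr11:48992247-48992366, - strand) the GAS letters come first and the ISRE letters second, and in Irgm1 (chr11:48871421-48871540, - strand) the capitals are 2 overlapping ISRE matches.
Gbp2: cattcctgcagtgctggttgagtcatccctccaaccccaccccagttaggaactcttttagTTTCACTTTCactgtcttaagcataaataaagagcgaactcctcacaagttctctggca
Igtp: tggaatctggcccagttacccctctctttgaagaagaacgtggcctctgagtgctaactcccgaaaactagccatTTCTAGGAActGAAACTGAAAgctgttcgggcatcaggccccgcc
Tgtp1: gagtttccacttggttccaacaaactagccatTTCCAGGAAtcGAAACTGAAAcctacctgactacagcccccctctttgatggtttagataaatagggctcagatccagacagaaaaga
Irgm1: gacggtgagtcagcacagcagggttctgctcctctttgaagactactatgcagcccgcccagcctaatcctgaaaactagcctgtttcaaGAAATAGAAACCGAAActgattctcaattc

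Cxcl9, a chemokine that draws T cells and is induced by interferon gamma, was at 2.60, 2.91, 2.54, 3.17 and 2.92 on Day 1, Day 6, Day 10, Day 14 and Week 0. Its 6 late arrays lay between -0.13 and 0.93, with a median of 0.50. Every late array lay below every early one, and the difference was -2.37 ± 0.28 (SE, 5 early and 6 late arrays), 5.18-fold lower with limma's adjusted p = 0.0286. It was -2.32 without Week 6 and Week 9. On LFC its difference was -0.67, and all 18 KAL arrays lay below the lowest early HFC array.

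Gbp2, a guanylate-binding protein of the interferon response, was at 3.85, 3.56, 3.06, 3.99 and 3.30 on the early arrays in the same order. Its late arrays ran from 0.91 to 2.28 with a median of 1.63, all below the early ones. The difference was -1.99 ± 0.32 (SE, 5 and 6 arrays; limma's adjusted p = 0.0304). The LFC difference was -1.41.

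Irgm1, an immunity-related GTPase that acts in the clearance of vacuolar pathogens, was at 2.79, 2.55, 2.12, 2.45 and 2.71 early. Late it ran from 0.43 to 1.46 with a median of 0.78, with no overlap, and fell by 1.69 on the log2 scale (SE 0.28, limma's adjusted p = 0.0304). Igtp, of the same family, fell by 1.94 and Iigp1 by 2.31, where Week 3 of Iigp1 (4.14) overlapped Day 10 (4.08).

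Irf7, the transcription factor that amplifies type I interferon, was at 0.51, 2.0, 0.99, 0.23 and 0.54 early. The late arrays spanned -2.84 to -0.11 with a median of -1.92, and Week 3 was the late array nearest to the early ones. The groups did not overlap, and the difference was -2.57 ± 0.48 (SE, limma's adjusted p = 0.0329), beside -2.05 on LFC.

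Other interferon-inducible genes passed that are not on the list and were chosen after their values were seen. Gbp4, Gbp7 and Gbp9 differed by -2.52, -2.0 and -2.24, Tgtp1 by -2.52, and Batf2, a transcription factor induced by interferon gamma, by -2.13 (5 late arrays, since its Week 12 spot was dropped). Cmpk2, a mitochondrial nucleotide kinase induced with antiviral genes, differed by -2.12 and Wars, the tryptophanyl-tRNA synthetase, by -1.69. No late array of these 7 genes overlapped an early one.

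**Figure D2:**
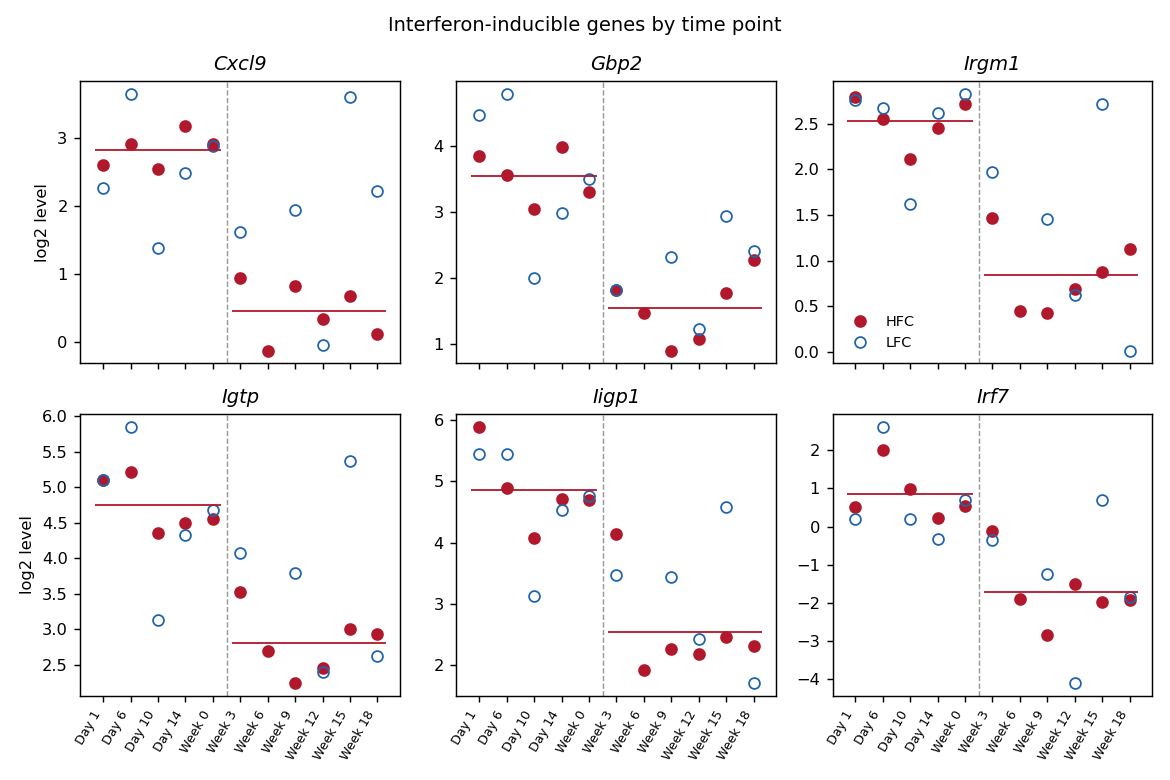
Log2 level (vertical axis) of 6 genes of the interferon list by time point (horizontal axis); filled points are HFC arrays, open points LFC arrays (none at Week 6), 1 array each, and the lines are the HFC early and late means. For Cxcl9 all late HFC arrays lie under 1, while 4 of the 5 late LFC arrays, all but Week 12, lie within the range of the early LFC arrays (1.38 to 3.65).

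Endothelial genes were lower late as a group. Of 16 measured, 15 were lower (16 with quantile scaling), against 57.5% of all genes. Of these, 2 passed (0.657% of all genes passed as lower) and 15 had an unadjusted p under 0.05 (12.3% of all genes). Vwf, the clotting factor carrier, was the exception with a difference of 0.02. The median was -1.46 and became -1.05 without Week 6 and Week 9, with 15 of 16 still lower. The mean level ran from 3.46 on Day 14 to 4.63 on Week 0 among the early arrays and from 1.98 on Week 12 to 3.73 on Week 3 among the late ones, so the groups overlapped.

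Aplnr, the apelin receptor of sprouting vessels, was at 2.86, 3.09, 2.45, 1.71 and 2.95 on Day 1 to Week 0. Its late values lay between -0.86 and 1.48 (median -0.14). The highest late array, Week 3, was below the lowest early one, Day 14. Aplnr fell by 2.57 on the log2 scale (SE 0.43, limma's adjusted p = 0.0304), beside a difference of -2.46 on LFC.

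Gpihbp1, which carries lipoprotein lipase across the capillary wall, was at 7.04 (saturated), 6.75, 6.77, 7.17 and 7.45 early. The late range was 3.64 to 5.96 with a median of 4.93, below every early array. The difference was -2.17 ± 0.43 (SE, limma's adjusted p = 0.0402). Tek, the angiopoietin receptor, differed by -1.61 without passing (adjusted p = 0.0837).

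Col4a1, a chain of the collagen of basement membranes, was at 4.94, 4.86, 5.08, 4.36 and 5.80 early. By the late arrays it was between 2.58 and 3.37 (median 2.97), and the groups stood apart. It fell by 2.02 on the log2 scale (SE 0.30, limma's adjusted p = 0.0298), and all 18 KAL arrays lay below its lowest early array. Its partner chain Col4a2 differed by -1.86 without passing (adjusted p = 0.0743). The other members of the collagen and fibroblast list did not pass, and the list as a whole had a median of 0.08, with 13 of 21 genes higher (a median of -0.09 with the 75th percentile taken over bright probes): Col1a1 differed by -0.46, Col3a1 by -0.51 and Pdgfra, the receptor that marks fibroblasts, by 0.84.

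Other genes known from endothelium passed and were named after their values were seen: Cd300lg (-2.23), a receptor of the capillary surface, Sox7 (-2.05), a transcription factor of vessel formation, and Clec1a (-1.76), a lectin receptor. Prnd, which codes for doppel, a prion-like protein found on growing vessels, belongs to the 10 genes with the largest falls, at -3.15 ± 0.60 (SE, limma's adjusted p = 0.0353). It was at 0.79, 0.68, 0.65, -2.52 and 0.29 early, where Day 14 lay far under the other early arrays and overlapped the late range of -4.42 to -2.46. It was well above background on 4 early and 4 late arrays.

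Genes of the cell cycle and of DNA replication were lower late in all 21 measured (20 with quantile scaling), against 57.5% of all genes. Of these, 1 passed (0.657% of all genes passed as lower) and 14 had an unadjusted p under 0.05 (12.3% of all genes). The median was -1.60 on all arrays and -0.98 without Week 6 and Week 9, with 20 of 21 lower. The mean level overlapped between the groups: Day 14, at -1.03, was below Week 12, at -0.72, and Week 3, at -0.99.

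Mcm3, a subunit of the replicative helicase, was at -0.48, -0.13, -0.37, 0.03 and -0.54 early. On 5 late arrays (the Week 12 spot was dropped) it ran from -2.93 to -1.20 with a median of -1.94, without overlap. It fell by 1.85 on the log2 scale (SE 0.36, limma's adjusted p = 0.0466). Top2a, the topoisomerase of dividing cells, differed by -2.85 and Bub1b, a spindle checkpoint kinase, by -2.60, neither past the threshold (adjusted p = 0.0594 and 0.0616) and each well above background on 3 late arrays.

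Kif4, a chromosome-bound kinesin, is among the 10 largest falls. It was at -1.10, -0.98, -1.55, -0.91 and -1.71 early, and on 5 late arrays ran from -4.62 to -3.62 with a median of -4.21, far from the early range. The difference was -2.92 ± 0.30 (SE, limma's adjusted p = 0.0269), and 15 of the 18 KAL arrays lay below the lowest early array. Nuf2, of the kinetochore, fell by 2.61. The late levels of these genes are near the limit of detection: Kif4 and Nuf2 were each well above background on 4 late arrays, so part of the late values are signals not told from background. Tpx2 of the mitotic spindle (-2.31) and Pola2 of DNA polymerase alpha (-1.92) also passed and were named after their values were seen.

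Imprinted growth genes, which act on growth before and after birth, were lower in 11 of 13 measured (10 with quantile scaling), with a median of -1.04 (-0.54 without Week 6 and Week 9). Of all genes 57.5% were lower. None of the list passed at an adjusted p of 0.05. An unadjusted p under 0.05 was found for 6 lower genes (12.3% of all genes). Mest was at 2.09, 1.93, 2.32, 0.41 and 1.34 early and ran from -2.09 to 0.85 late with a median of -0.46. Its Week 12 array lay within the early range, and the difference of -2.28 did not pass (limma's adjusted p = 0.0692). Cdkn1c, a cell cycle inhibitor, differed by -2.17 without overlap (adjusted p = 0.0793), and Plagl1, a transcription factor of the same network, by -2.12 (adjusted p = 0.0724). Gtl2, at 0.98, went the other way.

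**Figure D3:**
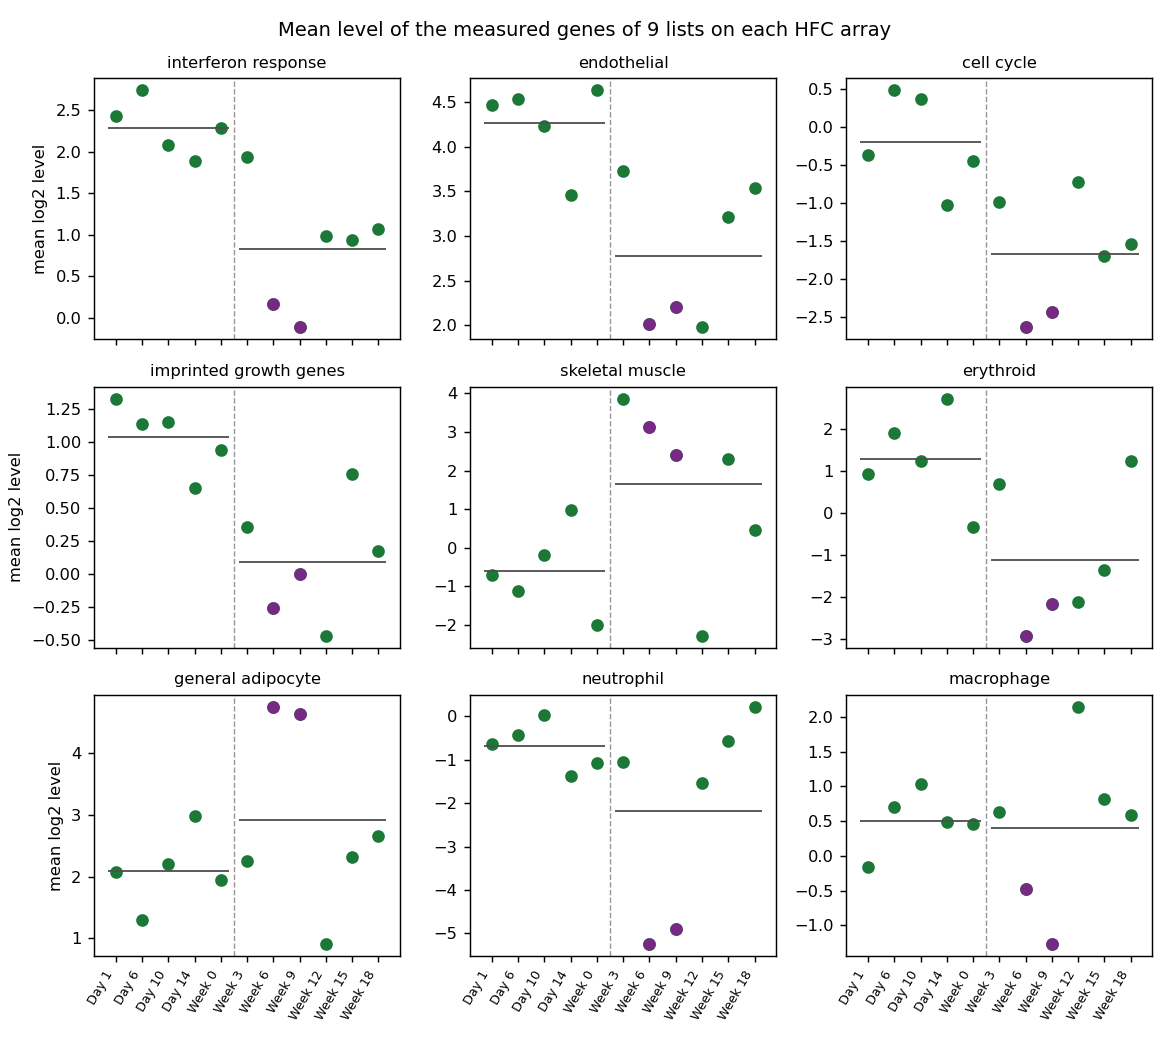
Mean log2 level of the measured genes of 9 lists (vertical axes) on each of the 11 HFC arrays (horizontal axis), 1 point an array; the dashed line parts early from late arrays, the lines are the group means, and purple marks Week 6 and Week 9. In the adipocyte and neutrophil panels these 2 arrays stand apart from the other 9, while Week 12 is highest in the macrophage panel and lowest in the adipocyte panel.

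Enpp2, which rose, codes for autotaxin, the secreted enzyme that makes lysophosphatidic acid, and was at 0.70, 0.89, 2.05, 0.39 and 0.80 early. From Week 3 on it was between 2.55 and 4.73 (median 3.19), highest on Week 6 and Week 9 and above every early array on all 6. The difference was 2.52 ± 0.47 (SE, 5.73-fold, limma's adjusted p = 0.0329), and 1.97 without Week 6 and Week 9 (adjusted p = 0.058). Hsd11b1, which regenerates active glucocorticoid inside cells, was at 0.37, 0.09, 0.89, 0.75 and -0.24 early and from 0.91 to 3.79 late with a median of 2.89. Its Week 3 array was only just above Day 10. The difference was 2.29 ± 0.47 (SE, limma's adjusted p = 0.0475).

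Esr1, the oestrogen receptor alpha, was at -2.25, -2.31, -1.57, -1.51 and -2.32 early. On the late arrays it was between -1.30 on Week 3 and 1.12 on Week 12 (median 0.07), above the early arrays throughout. It rose by 1.99 (SE 0.41, limma's adjusted p = 0.0472), beside 0.31 on LFC.

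Stbd1, which tethers glycogen to membranes, was at -1.69, -1.32, -1.29, -2.08 and -1.58 early and from -0.17 to 0.65 late with a median of 0.26. It rose by 1.82 (SE 0.26, limma's adjusted p = 0.0286). Hspb8, a small heat shock protein, rose by 1.76 and had 17 of the 18 KAL arrays above its highest early array. Celf2, an RNA-binding splicing regulator, rose by 2.05, Rgma, a guidance molecule that binds neogenin, by 1.72, Akr1b8, an aldose reductase, by 1.71, Lancl1, a glutathione-binding protein, by 1.69 and Aamdc, a little-studied gene, by 1.73. Lancl1 has 1 other probe, which did not run in the same direction. None of these genes overlapped between the groups.

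The other genes of the 10 largest falls belong to no list, and neither do Prnd, Kif4 and Nuf2, described above beside the lists. Akap5, an anchoring protein of protein kinase A, was at 1.20, 0.39, -0.26, 0.13 and 0.40 early. Late it ran from -4.86 to -1.18 with a median of -3.65, and was well above background on 3 of the 6. The difference was -3.88 ± 0.60 (SE, limma's adjusted p = 0.0304), beside -1.27 on LFC. Treml4, a receptor of the TREM family on myeloid cells, fell by 2.94, Cacng7, a calcium channel and AMPA receptor subunit, by 2.78 and Ripor3 by 2.75, with 4, 4 and 3 late arrays well above background. Of the 194 probes that passed as lower, 79 carry clone or predicted names, and 26 of the 222 have names of the Gm3 series, whose near-identical copies a probe may not tell apart.

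The medians of the fat cell lists were higher late, by an amount that depended on which arrays were kept. Of 18 measured genes of the general adipocyte list 13 were higher, with a median of 1.06, and of 16 of the brown adipocyte list 11, with a median of 1.19; none passed. Without Week 6 and Week 9 the medians were 0.05 and -0.07, and without Week 12 they were 1.32 and 1.59, with 14 of 18 and 15 of 16 genes higher. The mean level of the brown adipocyte list was -2.30 on Week 12, 1.04 on Week 3, 1.79 on Week 15 and 1.53 on Week 18, beside at most 1.23 early. The lipogenesis list went from 0.72 to -0.14 without Week 6 and Week 9 and to 1.12 without Week 12. Of the general adipocyte genes 8 of 18 were saturated on at least 1 array, and of the brown adipocyte genes 4 of 16. Adipoq, which codes for adiponectin, was saturated on Week 6 and Week 9, with levels of at least 6.51 and 6.18, and ran from 2.44 to 4.78 on the other late arrays and from 1.85 to 3.59 early (difference at the saturated values 1.89, adjusted p = 0.206). Scd1, the stearoyl-CoA desaturase, was higher on every late array, 2.14 to 5.42 against 1.03 to 2.0, yet the difference of 2.15 ± 0.57 did not pass (limma's adjusted p = 0.109).

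Ucp1 differed by -0.95 ± 1.60 (SE, adjusted p = 0.79), and by 0.67 without Week 12. It has 1 other probe, which went the other way, at 1.49. Lep, which codes for leptin, differed by 2.77 (adjusted p = 0.164) and was well above background on 1 early and 4 late arrays. Dio2, the deiodinase that activates thyroid hormone in brown fat, differed by 2.10 (adjusted p = 0.176) and Ebf2, a factor of the brown lineage, by 1.35 (adjusted p = 0.188).

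The medians of the neutrophil, T cell and NK cell lists were lower late, and less so without Week 6 and Week 9. All 15 neutrophil genes were lower (12 with quantile scaling) with a median of -1.38, which became -0.07 without these 2 arrays, and all 13 T cell genes (8 with quantile scaling) with a median of -0.82, which became 0.19. The 10 NK cell genes were all lower (8 with quantile scaling) with a median of -2.02 and 7 of 10 were lower, with a median of -0.60, without the 2 arrays. Prf1, which codes for perforin, differed by -2.53 without overlap on 5 late arrays (adjusted p = 0.0724). Mpo, the myeloperoxidase of neutrophil granules, differed by -2.28 (adjusted p = 0.082).

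The direction of the macrophage genes depended on single arrays. Of 19 measured, 10 were higher and 9 lower, with a median of 0.05 (-0.12 with the 75th percentile taken over bright probes), and none passed. Without Week 12, 17 of 19 were lower (median -0.34), and without Week 6 and Week 9, 15 of 19 were higher (median 0.38). On LFC 18 of 19 were lower (median -0.69). Adgre1 differed by -0.52 ± 0.55 and Cd68 by 0.14 ± 0.65 (SE). Without Week 12 Cd68 differed by -0.32. A list of lipid-laden macrophages had 12 of 16 genes higher with a median of 0.53 (42.5% of all genes were higher). With the 75th percentile taken over bright probes 9 of 16 were higher (median 0.36), and on LFC 8 of 16 (median -0.08). Fabp5 of this list, a fatty acid binding protein of macrophages and capillaries, was lower late on HFC and passed. It was at 1.28, 0.95, 0.72, 0.44 and 1.08 early and from -1.11 to -0.30 late with a median of -0.78. It fell by 1.64 on the log2 scale (SE 0.28, limma's adjusted p = 0.0304), and a probe of the near-identical Fabp5l2, at -1.60, may read the same transcript. Gpnmb, a glycoprotein of lipid-laden macrophages, was at -4.01, -4.09, -2.36, -4.04 and -3.92 early and from -3.39 to 0.13 late with a median of -0.54, and was well above background on 3 early and 6 late arrays. Its difference of 2.49 did not pass on all arrays (adjusted p = 0.115) and was 3.44 with an adjusted p of 0.0247 without Week 6 and Week 9. Ctsd, a lysosomal protease, differed by 1.29 without overlap (adjusted p = 0.146) and was saturated on Week 6.

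Skeletal muscle genes were higher late in all 17 measured (42.5% of all genes were higher), with a median of 2.54 (1.99 without Week 6 and Week 9); 8 had an unadjusted p under 0.05 (4.04% of all genes) and none passed. Their mean level was not uniform: Week 12, at -2.28, was the lowest of all 11 arrays, and Week 3, at 3.86, the highest. Tnnt3, the fast troponin T, differed by 3.42 (adjusted p = 0.0699) and Myh2, a fast myosin, by 3.20 (adjusted p = 0.103). Erythroid genes were lower in all 9 measured (57.5% of all genes were lower), with a median of -2.14 (-1.68 without Week 6 and Week 9). Of these, 6 had an unadjusted p under 0.05 (12.3% of all genes) and none passed. The mean level of the erythroid list overlapped between the groups. Week 3, at 0.69, and Week 18, at 1.23, lay within the early range of -0.33 to 2.71. Eraf, the chaperone of alpha globin, differed by -3.97 (adjusted p = 0.131) and Slc4a1, the band 3 anion exchanger, by -3.13 (adjusted p = 0.199), with 3 and 6 late arrays well above background. The part of muscle and red cell transcripts in the results for single genes that passed was not tested.

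Immediate early and heat shock genes were lower in all 15 measured, with a median of -1.62 (-0.58 without Week 6 and Week 9) and no call. Hspa1a, saturated on 4 arrays, was at 7.07, 8.78, 8.51, 7.08 and 8.18 early and from 5.81 to 7.60 on 5 late arrays, with Week 6 at 1.99. Jun was likewise at -0.49 on Week 6 and from 2.79 to 4.2 on the other late arrays.

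The remaining lists had no call. Medians were 0.67 for fatty acid oxidation, 0.48 for the respiratory chain, 0.57 for hypoxia and glycolysis, 0.46 for antioxidant genes and metallothioneins, 0.24 for MHC class II and 0.21 for the circadian clock. They were near that of all genes for sterol synthesis (-0.01), alternative activation (-0.11), ribosomal proteins (-0.12), Hox genes (-0.05) and endoplasmic reticulum stress (0.05). Medians were lower for inflammatory genes (-0.76), senescence (-0.76), mast cells (-0.65), B cells (-0.46) and Schwann cells (-0.37). In this order 13 of 13, 5 of 9, 6 of 8, 8 of 11 and 7 of 9 genes were lower (57.5% of all genes). No inflammatory gene had an unadjusted p under 0.05. On Week 6 and Week 9 the inflammatory list was at -4.43 and -3.50. Its other late arrays ran from 0.56 to 3.13, beside -1.57 to 2.0 early. The B cell list was at -4.38 and -3.95 on these 2 arrays. Its other late arrays ran from -2.07 to -0.83, beside -2.53 to -1.87 early. The fatty acid oxidation list was at 4.79 and 4.41 there and at most 3.05 on the other late arrays, beside at most 3.09 early. The respiratory chain list was also highest on these 2 arrays. The mesothelial list kept 4 genes with a median of 0.53, and its mean level was 2.96 on Week 12 against at most -1.32 on the other 10 arrays.

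**Figure D4:**
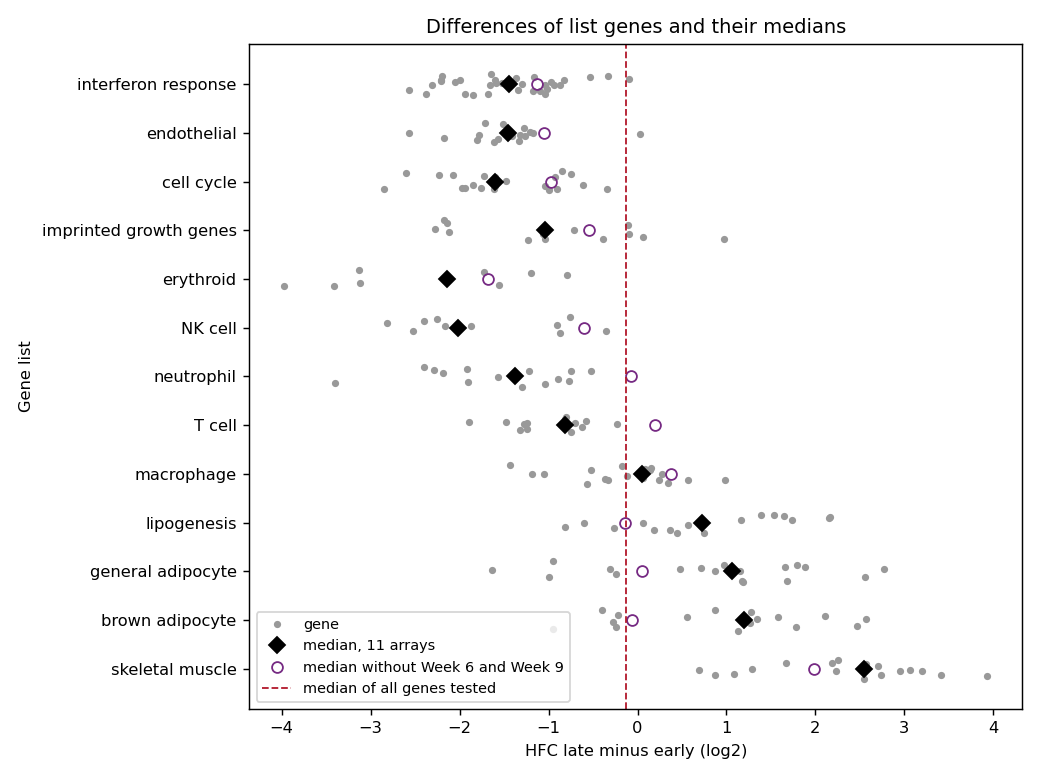
Difference between late and early HFC arrays on the log2 scale (horizontal axis) for each measured gene (grey points, spread vertically for view) of 13 lists (rows), with the median over all 11 arrays (diamond) and without Week 6 and Week 9 (open circle); the dashed line is the median of all genes tested, -0.13. The circles of the fat cell, lipogenesis, neutrophil and T cell lists lie near the dashed line, while those of the interferon, endothelial, cell cycle, erythroid and muscle lists lie away from it.

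Week 0 was the early array scanned among the weeks. When Week 0 was left out of the fit, no probe passed (4 early arrays), so the 222 probes with the smallest p were taken, 206 of them lower late. On 180 of these (81.1%) Week 0 lay nearer to the mean of the Day arrays than to that of the late arrays, against 57.4% of all probes tested.

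On LFC the same genes moved mostly the same way. Of the 194 probes that passed as lower on HFC, 191 were lower late on LFC too, with a median of -1.06, and of the 28 higher, 22 were higher, with a median of 0.80. Over all probes, 68.4% of those lower and 68.1% of those higher on HFC had the same sign on LFC. LFC and HFC have no array in common but share a scan day at 6 time points. On LFC alone no probe passed limma's test, with 1297 (4.79%) at an unadjusted p under 0.05. The list medians on LFC were -1.19 for interferon, -1.14 for endothelial, -1.30 for cell cycle, 2.48 for muscle and -1.0 for erythroid genes.

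The test of the difference between the diets' changes, over all 21 arrays, called none of 27100 probes (smallest limma adjusted p = 1.00; 480, or 1.77%, at an unadjusted p under 0.05). Among the genes named here the lowest unadjusted p were those of Rgma (0.0049; 1.72 on HFC, -0.40 on LFC), Fabp5 (0.0115; -1.64 and -0.26), Akap5 (0.0141; -3.88 and -1.27) and Smarcd3 (0.0218; 1.53 and 0.02), a chromatin remodelling subunit named after its values were seen. None held after adjustment, which does not show that the changes on the 2 diets were alike.

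**Figure D5:**
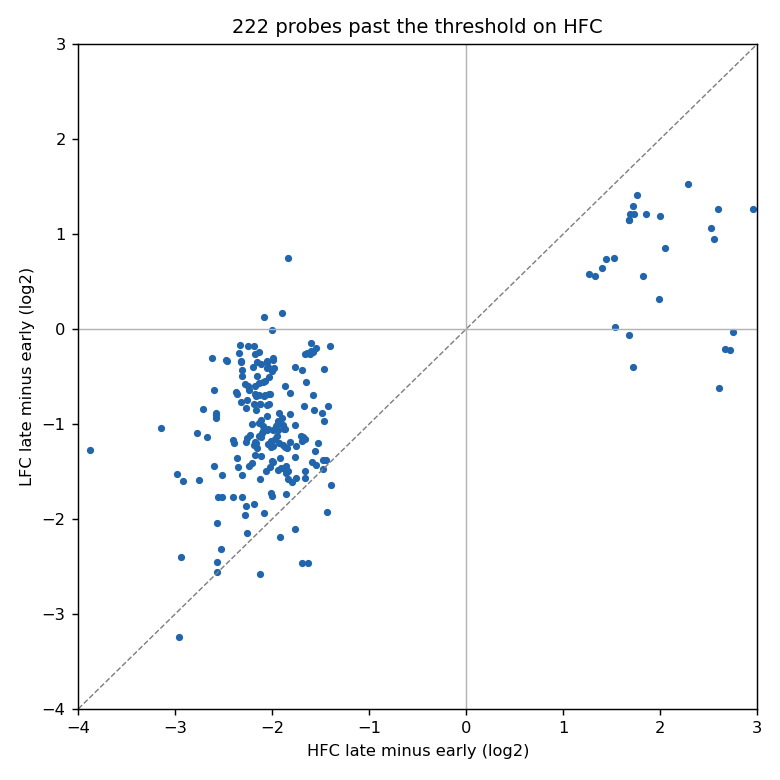
Late minus early difference on LFC (vertical axis, log2) against that on HFC (horizontal axis, log2) for the 222 probes that passed on HFC, 1 point a probe; the dashed line marks equal change. Of the 194 points at the left 191 lie below 0 on the vertical axis, with an LFC median of -1.06 beside the HFC median of -2.06. The probes were chosen by their HFC values.

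The median of the KAL arrays, all taken at Week 3 to Week 18 on the high fat diet, sat with the late arrays on most probes that passed. On the array of 20 µg at Week 15, 71.4% of spots carried an outlier flag and were dropped. On that of 5 µg at Week 12 the share was 18.6%. Both were kept among the 18 arrays, here and in the counts for single genes. Every KAL array was scanned before the Day arrays of HFC, as the late arrays were. Scan day and time on the diet cannot be told apart here. The median of the 18 lay on the late side of the midpoint for 193 of the 194 probes lower late and 27 of the 28 higher late, against 64.0% and 67.4% of all probes of either sign.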

How the data were processed

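Total RNA was hybridised in a single colour to 39 Agilent arrays, each from a different diet and time point, and groups follow the labels. The deposited scanner files give the intensity of each spot, from which Agilent Feature Extraction had taken the background, unscaled between arrays. The submitters' processing notes name version 9.1, while the headers of the scanner files name a different version. The deposited series table holds log2 values relative to a reference array and was read for its Day 14 columns only. Log2 processed signal minus the 75th percentile of the array was used, outlier-flagged spots were dropped and spots of a probe averaged. Of 40628 probes, 28136 matched a RefSeq accession, which updated 3897 symbols, and the others kept the array's name. A probe was tested if its signal cleared background on 5 or more of the 11 HFC arrays and measured on at least 3 of each group.

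Late and early arrays were compared with limma 3.58.1 (R 4.3.3), unpaired, two-sided, with Benjamini-Hochberg adjustment at 0.05; the diets' changes were compared in 1 fit of 21 arrays. Named genes are the 10 with the largest difference in each direction among those that passed, have a gene name and were well above background on at least 8 arrays, read from the brightest probe, plus the 3 of smallest p of a list and 4 markers. Of these, 2 genes are not reported here. The members, gene lists and rules were chosen with earlier results of these data known, so no list is independent evidence. Single array measures used exact permutation tests (scipy 1.17.1). Tested on simulated data, the comparison over 27102 probes recovered 0% of 2-fold, 37% of 4-fold, 69% of 8-fold and 86% of 16-fold changes. Arrays have no read depth, and their number and the signal over background limit the precision. Alternatives were other scalings, filters, tests, blocks and left-out arrays; the arrays left out in pairs and the exchange of the Day 14 arrays were chosen after seeing the data.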

Additional observations from a re-analysis of the deposited data

Results flagged for a closer look

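Of 210 groups of values tested for a sample far from the others (the named genes, the described lists and the array measures, early and late each), 16 were flagged, where chance flags about 1 in 20. Each is the highest or lowest array of its group by a wide gap. Week 12 had Ucp1 at -3.46 (next lowest 5.26), Nuf2 at -2.53 (next highest -4.08), Tgtp1 at -0.10 (next lowest 1.36) and 11.1% of spots with an outlier flag (next highest 0.13%). Week 6 had Hspa1a at 1.99 (next lowest 5.81), Jun at -0.49 (next lowest 2.79) and Pola2 at -2.10 (next highest -3.51). Day 14 had Prnd at -2.52 (next lowest 0.29) and the immediate early and heat shock list at a mean level of 3.75 (next lowest 5.28). Day 10 had Gpnmb at -2.36 (next highest -3.92) and Gbp4 at 1.24 (next lowest 2.16). Day 1 had 90.1% of spots well above background (next highest 62.4%) and 2.19% with an outlier flag (next highest 0.09%). Day 6 had Dio2 at -3.48 (next lowest -3.01), Week 3 had Iigp1 at 4.14 (next highest 2.46) and Week 18 had Gbp7 at 0.48 (next highest -0.81).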

How the results depend on the processing

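The direction of the 43 named genes that passed did not turn in any of the 28 alternatives tried for them (1192 values). These genes were chosen for their difference on the same arrays, so the kept direction is not separate support. The number of probes past the threshold, 222 (28 higher, 194 lower), moved widely. It was 355 (22 and 333) with the 75th percentile taken over probes well above background on all 11 arrays, 802 (156 and 646) with array weights, and 349 (34 and 315) with the Day 14 array labelled LFC in place of HFC. It was 79 (20 and 59) without Week 6 and Week 9, 31 (2 and 29) with Day 14 and Week 0 averaged, 17 (0 and 17) over LFC and HFC arrays with scan date as a random block, and 3 (0 and 3) with all 39 arrays in the fit. Limma called 0 probes (0 higher, 0 lower) with normexp background correction (937 at an unadjusted p under 0.05), with no filter on dim probes (4014), without the arrays titled BAT, Day 1 and Week 9 (2631), without Day 1 and Week 12 (3870), and for the slope over log2 days (2510). The methods' t-test called 158 after adjustment and 4206 at an unadjusted p under 0.05. Leaving out 1 array gave 0 to 205 probes, 0 to 22 higher and 0 to 185 lower, with 3271 to 5254 at an unadjusted p under 0.05, of which 65.8% to 84.5% were lower. Ucp1 turned to 0.67 without Week 12 (range over left-out arrays -1.36 to 0.67) and to 0.47 without Day 1 and Week 12. Cd68 ranged from -0.32 to 0.48 over left-out arrays, and was -0.022 with the percentile over bright probes and -0.64 without Day 1 and Week 12. The cause of these shifts was not tested. The test between the diets called 0 probes in all 25 of its alternatives, with 362 to 863 at an unadjusted p under 0.05. No paired analysis was possible because the early and late arrays are different time points, and replicate numbers in the labels do not tie an early array to a late one.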
